A study of Mus musculus with 15 samples.

Results

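The 84 genes described here carry the symbols of cytosolic ribosomal protein genes and their paralogs. They are the rows of the count tables whose symbol is Rpl or Rps followed by a number, with the paralog endings a, l and x allowed, together with Rplp0, Rplp1, Rplp2 and Rpsa, and they make up 84 of 24421 genes. The large subunit accounts for 51 of them and the small subunit for 33. This rule uses symbols alone and no measured value, while the genes described singly and the lists were chosen with earlier results known.

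The study sequenced RNA of mouse cerebella on the FVB background, 5 libraries for each of 3 genotypes. Wild-type FVB mice carry no transgene. The ATXN1[82Q] mice carry the human spinocerebellar ataxia type 1 protein with 82 glutamines, driven by Pcp2 sequences that restrict it largely to Purkinje cells, which carry the output of the cerebellar cortex. The ATXN1[82Q]V591A;S602D mice carry the same promoter and glutamine tract with a pair of amino acid substitutions known to weaken binding to the repressor CIC, and their transgene is called the substituted transgene, and the animals the substituted mice, below. All mice share the FVB strain, and an age is not stated in the labels. A ribosomal protein difference in whole cerebellum therefore adds up transgene-bearing Purkinje cells and the far more numerous cells around them, and fewer cells of a type cannot be told apart from less RNA per cell. Nothing in the labels ties a library to its own animal, and p-values therefore describe library-to-library spread. Transgene levels were not measured.

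Each cytosolic ribosome joins a small subunit, which reads the mRNA, to a large subunit, which makes the peptide bond and lets the new chain out through a tunnel. Their proteins are needed in matched amounts, and surplus free ribosomal proteins are degraded or, for a few, bind the p53 inhibitor MDM2. In vertebrates the mRNAs begin with a C and a run of pyrimidines, the 5′ terminal oligopyrimidine motif, through which mTOR and the RNA-binding protein LARP1 control their translation and stability. In neurons, local translation in dendrites also relies on these proteins.

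The promoters were looked at first, since the genes are known to be controlled as a group. RefSeq promoter sequences (GRCm38.p6, 250 bases before to 50 after the start) were matched for 63 of the 84 genes. A C followed by at least 5 pyrimidines, beginning within 30 bases of an annotated start on the transcribed strand, was present in 49 of the 63 (77.8%) and in 45.8% of all 27025 genes in the promoter table. The bases CCGGAAG, the core bound by ETS-family factors such as GABPA, were found on either strand in 26 of the 63 (41.3%) and in 9.93% of all genes. The letters GGGCGG, a GC box found on either strand, were present in 61.9% against 38.2%, and TATAAA on the transcribed strand in 9.52% against 9.77%. AAGATGGCG, a motif of the factor YY1, was found on either strand in 6.35% against 1.64%. The octamers TGAATGAA and TGAATGGA, which CIC binds, occurred, on either strand, in 0 of the 63 and in 1.5% and 1.4% of all genes. A match is a description of the letters and not evidence of a bound factor, and no match says only that these letters are not in this window.

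The windows below show the pyrimidine run in capitals for Rps6, Rpl14, Rps12 and Rpl22l1, and CCGGAAG in capitals for Rps3a1, Rps27l and Rpl11. They were chosen because their transcripts are followed by library further on, or, for Rpl11, because its protein is an MDM2 ligand. Each is written 5′ to 3′ on the gene's strand. The Rps6 window is chr4:86857346-86857375 (minus strand), the Rpl14 window chr9:120571509-120571538 (plus), the Rps12 window chr10:23787180-23787209 (minus) and the Rpl22l1 window chr3:28805503-28805532 (plus). The Rps3a1 window is chr3:86142659-86142688 (minus), the Rps27l window chr9:66946084-66946113 (plus) and the Rpl11 window chr4:136053369-136053398 (minus).
Rps6: agtcgggcCTCTTTTTCgtgacgcctccca
Rpl14: ccctctctCTTCTCgctgagcgccgccaac
Rps12: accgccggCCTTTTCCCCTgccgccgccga
Rpl22l1: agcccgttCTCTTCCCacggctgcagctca
Rps3a1: gattcttaaagCCGGAAGggcgaaagagca
Rps27l: ccgcctctatcCCGGAAGttgctgaggggc
Rpl11: aggccacggggCCGGAAGtctccctctctc
The capitals mark the match that begins nearest the annotated start, which need not be the whole pyrimidine stretch. In Rps6 and Rpl14 this match begins at the annotated start itself. The 8 bases shown before it in Rpl14 are pyrimidines too, as is the base just before it in Rps6. In Rps12 the match begins 8 bases downstream of the annotated start.

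Per library, 38067915 to 40640811 reads fell on genes in wild type, 36467948 to 42818401 in ATXN1[82Q] and 38468429 to 41480492 in the substituted mice, and 15843 genes had enough counts to be tested. Summed Purkinje cell markers stood at 8979 CPM (counts scaled to library size) in wild type, 3706 in ATXN1[82Q] and 6854 in the substituted mice, granule cell markers at 5813, 4429 and 5660, oligodendrocyte markers at 5881, 7295 and 5733, and microglial markers at 112, 209 and 122. Choroid plexus markers, which come from tissue beside the cerebellum, summed to 19.1 to 4001 CPM across wild-type libraries, 28.3 to 5131 in ATXN1[82Q] and 36.7 to 3745 in the substituted mice. Their main transcript, Ttr, was over 1000 CPM in wild-type libraries 1 and 5, ATXN1[82Q] libraries 2, 4 and 5, and substituted libraries 2, 3 and 4, and under 100 CPM in the rest. Brainstem neuron markers summed to 20 to 37.8 CPM in wild-type mice, 30.7 to 77.1 in ATXN1[82Q] and 32.2 to 38.8 in the substituted mice. Bergmann glia and astrocyte markers (2785, 2850 and 2794 CPM) and endothelial markers (95.8, 101 and 102 CPM) were similar in sum. All 8 Purkinje cell markers were detected in every library. The part of these shifts in the ribosomal protein results was not tested, beyond the values by Ttr class and without libraries given below.

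Ribosomal protein transcripts made up a larger share of the counts in ATXN1[82Q] cerebella than in either other genotype. Their summed share of counts on genes was 1.22%, 1.12%, 1.08%, 1.14% and 1.21% in wild-type libraries 1 to 5. In ATXN1[82Q] it was 1.27%, 1.26%, 1.27%, 1.32% and 1.27%, and in the substituted mice 1.12%, 1.13%, 1.14%, 1.24% and 1.15%. In these unscaled shares every ATXN1[82Q] library lay above every library of the other genotypes, whereas wild type and the substituted transgene overlapped. With all reads of the tables as the denominator this separation from the substituted mice was lost, since substituted library 4 (0.852%) lay above ATXN1[82Q] libraries 1, 2, 3 and 5 (0.843% to 0.851%). The means were 1.15% ± 0.0610, 1.28% ± 0.0237 and 1.16% ± 0.0486 (SD, n = 5). Among libraries with Ttr under 100 CPM the share was 1.08% to 1.14% in 3 wild-type libraries, 1.27% in both ATXN1[82Q] libraries and 1.12% to 1.15% in both substituted ones. Among those with Ttr over 1000 CPM it was 1.21% to 1.22%, 1.26% to 1.32% and 1.13% to 1.24%. The order of unscaled shares, ATXN1[82Q] above the others, thus held within both classes. It did not hold on the TMM scale used for CPM, whose factors were 1.02 to 1.04 in ATXN1[82Q] and 0.968 to 1.00 elsewhere. There the median log2 deviation of the 80 tested genes from the wild-type mean was 0.079 in wild-type library 1. It was 0.078 in substituted library 4, and 0.066 and 0.057 in ATXN1[82Q] libraries 2 and 5, all with Ttr over 1000 CPM.

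**Figure D1:**
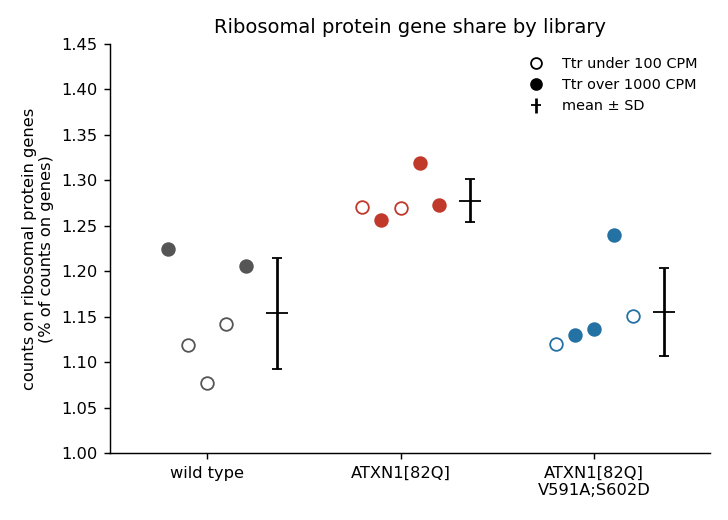
Share of counts on genes that fell on the 84 ribosomal protein genes (vertical axis, percent, starting at 1) in each library, with mean ± SD beside each genotype, open points for Ttr under 100 CPM and filled points for Ttr over 1000 CPM. The 5 ATXN1[82Q] libraries lie between 1.26% and 1.32%, above all wild-type and substituted libraries, whose highest values are 1.22% and 1.24%. The shares are not TMM-scaled.

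Within wild-type cerebellum the transcript levels, set per kilobase of the principal mRNA, spanned a narrow band for most of the genes and fell away for a few. Rplp1, one of the acidic stalk proteins that recruit elongation factors, stood highest at 485 ± 27.2 CPM per kb (SD, n = 5). Rpl31, which sits near the exit of the tunnel, followed at 470.2 ± 22.7, and their difference was smaller than the spread. Rps15 (419 ± 19.0), Rps29 (398.5 ± 23.2) and Rpl41 (384 ± 27.9) came next. Rpl31 stood above Rps15 by more than their SDs, while Rps15 and Rps29, and Rps29 and Rpl41, overlapped in mean ± SD. Near the bottom were the paralogs and a few standard members: Rpl22l1 at 71.7 ± 6.07, Rpl29 at 49.9 ± 1.21, Rpl7l1 at 36.8 ± 1.49 and Rps27l at 23.0 ± 1.87 CPM per kb. Rps20, at 18.1 ± 1.15, was divided by a principal mRNA of 3706 bases, so its rank rests on that choice of transcript. Rps4l, which GENCODE M21 annotates as a transcribed processed pseudogene, stood at 8.08 ± 1.66.

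Some ribosomal protein genes were listed near 0, although every cell needs their product. Rpl26, a large subunit protein beside the tunnel exit, had 0 counts in all 15 libraries, and Rpl30 had 0 to 9. Rpl34 had 12 to 26 counts and Rps27, a zinc-finger protein of the small subunit, 25 to 61. The shares of their mRNA 50-mers that also occur in transcripts of other genes were 71.3%, 76.4%, 50.6% and 98.6%, against 0% to 95.1% (median 57.4%) among members of at least 2 CPM. Rps27 thus lay above that range and Rpl26 and Rpl30 above its median, while Rpl34 lay below it. The annotation and the counting mode behind the tables are unstated here, and the cause was not tested. The tissue-restricted paralogs were also near 0, with 0 counts of Rpl10l, 0 to 5 of Rpl39l (both known from the testis) and 11 to 30 of Rpl3l (known from muscle). Rpl10l, Rpl26, Rpl30 and Rpl39l were not tested, which left 80 of the 84.

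**Figure D2:**
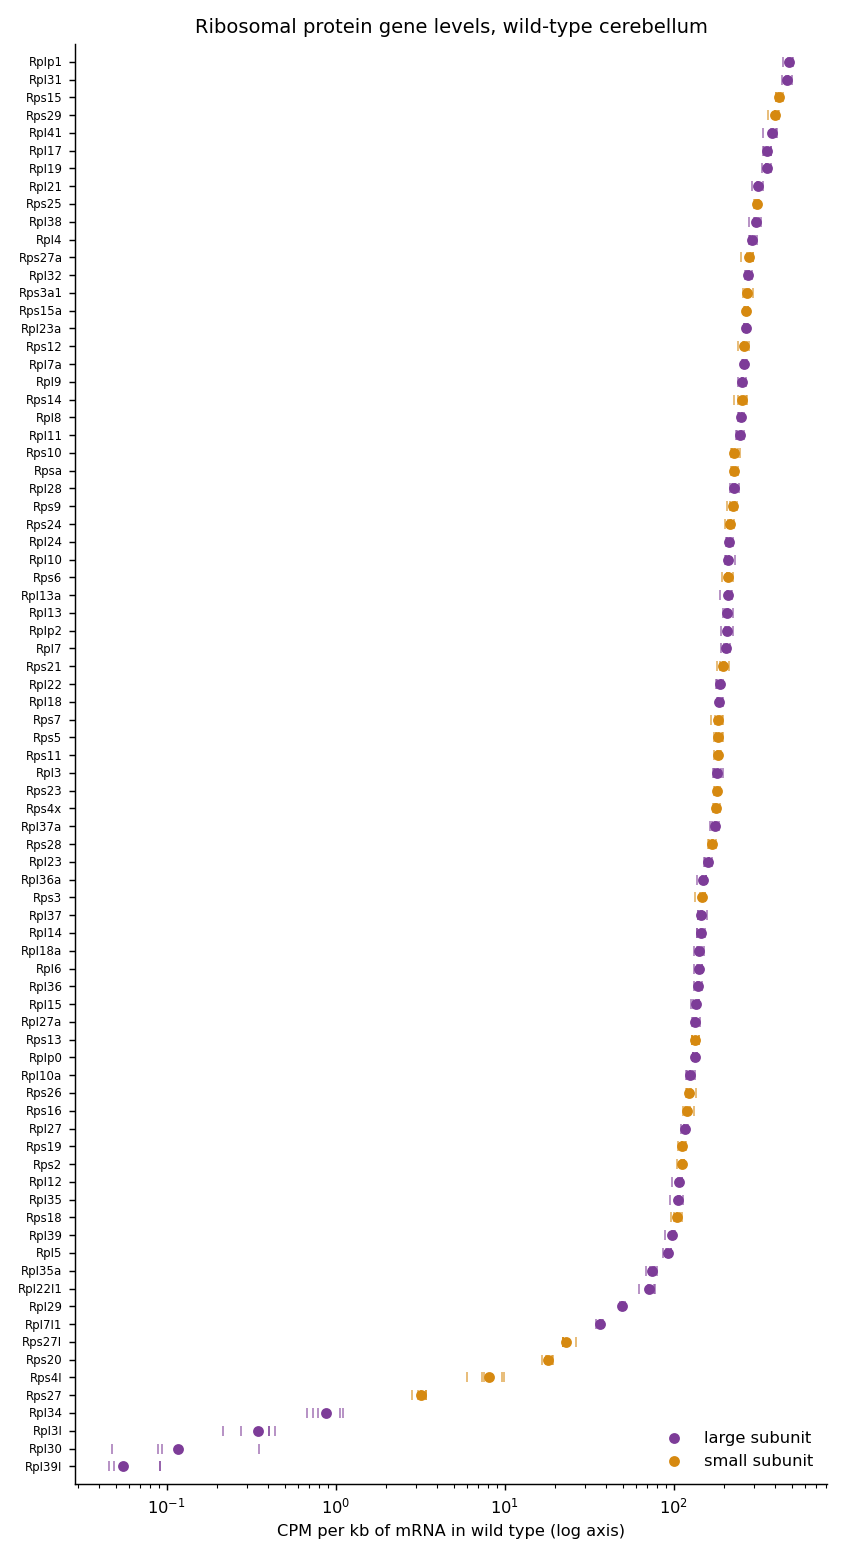
Mean level per kilobase of principal mRNA in wild-type cerebellum (horizontal log axis) for most of the ribosomal protein genes detected there, ordered by level, with ticks for single libraries above 0 and colours for the subunits. Rplp1 stands highest at 485 CPM per kb, and most genes lie within 1 decade of it. Rpl7l1, Rps27l, Rps20, Rps4l, Rps27, Rpl34, Rpl3l, Rpl30 and Rpl39l fall below that decade. Rpl10l and Rpl26 are at 0 and not drawn.

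In ATXN1[82Q] against wild type, which asks what the expanded protein changes, 18 of the 80 tested genes were called higher (22.5%) and 1 lower at an adjusted p under 0.05 in the edgeR quasi-likelihood test with Benjamini-Hochberg adjustment. Among all 15843 genes tested, 16.6% were called higher and 14.9% lower. The share called higher was thus only moderately above that of all genes, and the share called lower was far under it. The changes were small, from 6.67% to 14.4% (median 9.01%) for the 18 genes called higher. Over all 80 genes the median log2 fold change was 0.075, with 70 above 0, beside a median of 0.0069 and 51.8% above 0 for all genes tested. The ribosomal protein genes also had tighter estimates, with a median SE of 0.0399 against 0.0654. In 7 of them (8.75%) every ATXN1[82Q] library lay above every wild-type library, which is close to the 9.36% of all genes. These were Rpl14, Rpl23, Rpl36a, Rps12, Rps19, Rps4x and Rps9.

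For the substituted transgene against wild type, which asks what remains of the change when CIC binding is weakened, edgeR called 0 of the 80 genes higher and 0 lower, and DESeq2 also called 0. Among all genes, 0.208% were called higher and 1.2% lower. By unadjusted edgeR p under 0.05, 1 was higher and 3 were lower. The median log2 fold change of the 80 was -0.0087, with 33 above 0 and 47 below.

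In ATXN1[82Q] against the substituted transgene, the direct comparison of the transgenes, 19 of the 80 genes were called higher (23.75%) and 0 lower by edgeR, and DESeq2 likewise called 0 lower, as did the edgeR test at an unadjusted p under 0.05. Among all genes 13.5% were called higher and 14.6% lower. The changes ran from 6.94% to 18.7% (median 10.2%). The median log2 fold change of the 80 was 0.078, with 76 above 0, beside 0.0057 for all genes. In 9 of them (11.25%) every ATXN1[82Q] library lay above every substituted library, against 8.28% of all genes. These were Rpl14, Rpl21, Rpl23, Rpl4, Rpl7, Rps12, Rps28, Rps3a1 and Rps4x. The same ATXN1[82Q] libraries enter both comparisons, so the values of each gene are given side by side and not as independent evidence.

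The counts of called genes moved with single libraries. Against wild type, the number called higher was 7, 5 and 8 without wild-type libraries 2, 3 and 4, and 6 without ATXN1[82Q] library 4. Against the substituted transgene it was 12 and 11 without ATXN1[82Q] libraries 1 and 4, 11, 11, 12 and 12 without substituted libraries 1, 2, 3 and 5, and 36 without substituted library 4. Rpl14, Rpl23, Rps12 and Rps4x kept their calls in both comparisons under every alternative run, and Rps27a and Rps27l kept theirs against the substituted transgene.

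**Figure D3:**
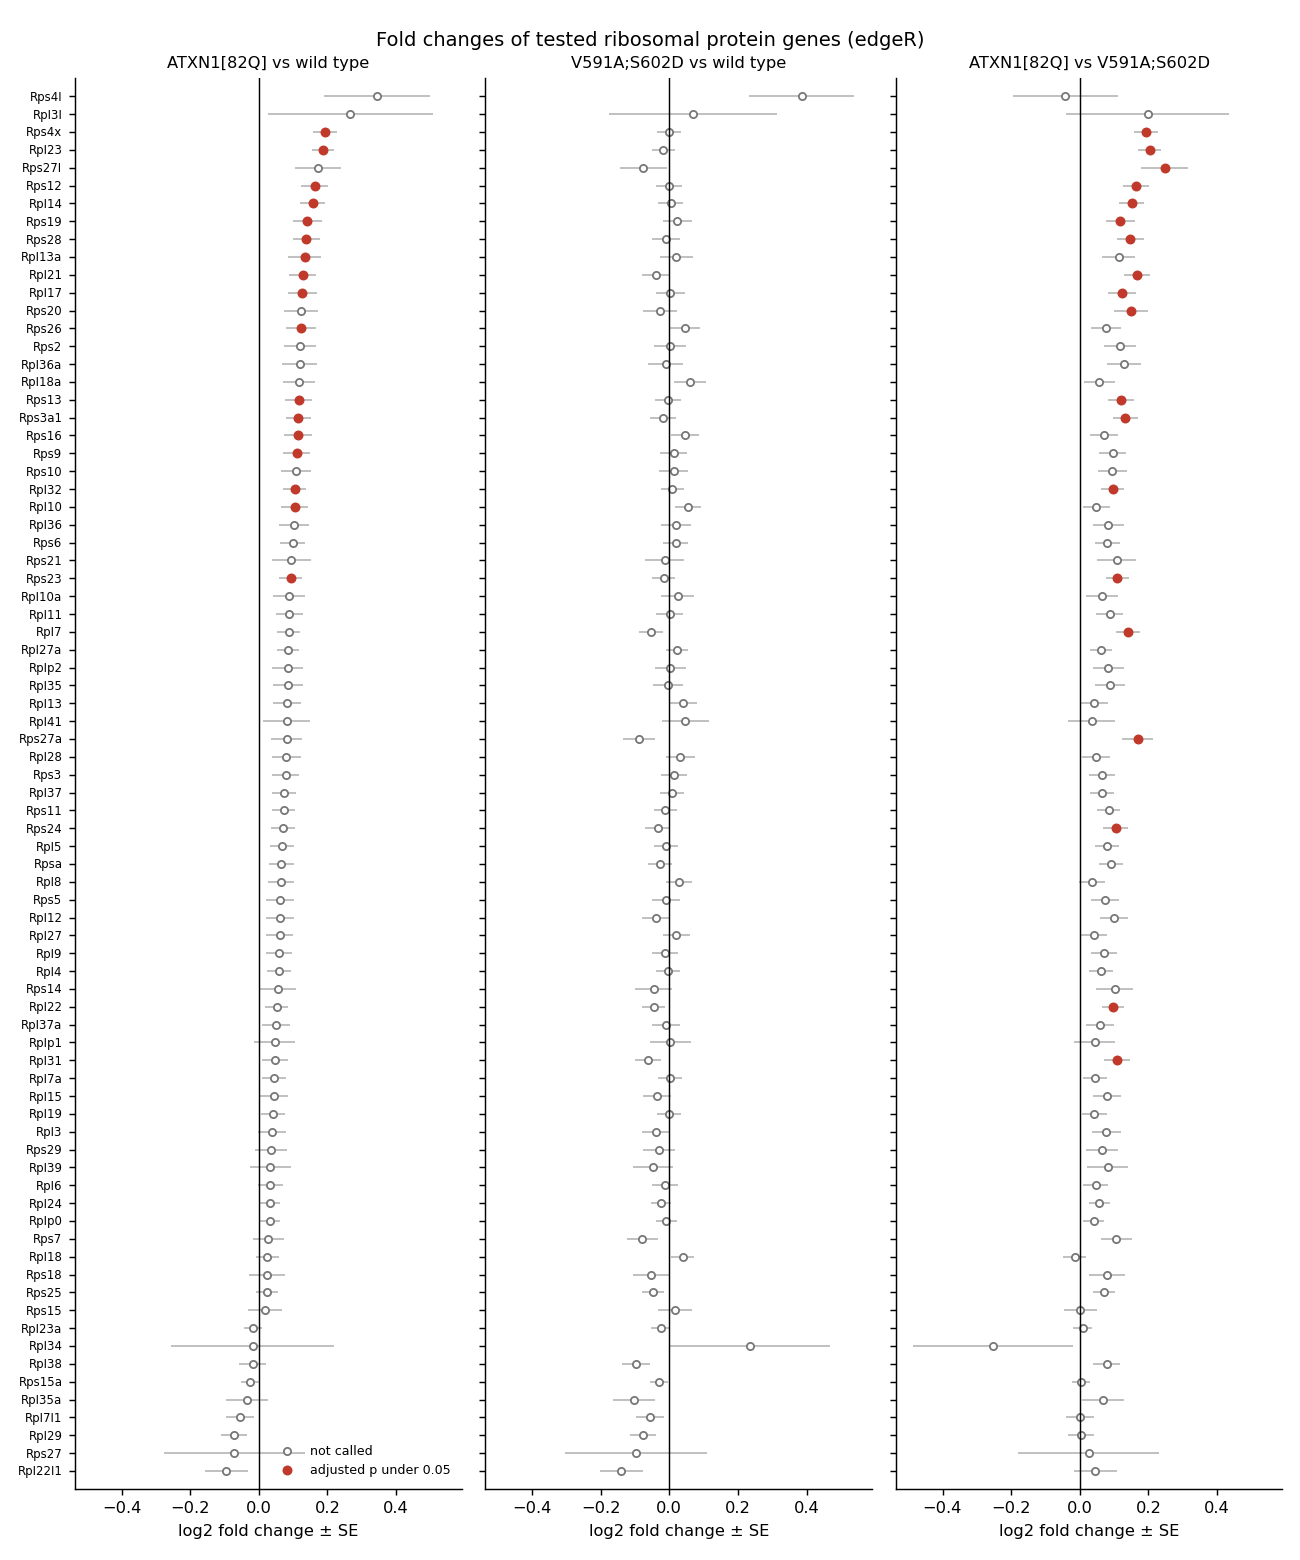
Log2 fold change ± SE (horizontal axis) of most of the 80 tested ribosomal protein genes in the 3 comparisons, ordered by ATXN1[82Q] against wild type, with filled points for an edgeR adjusted p under 0.05. In the left and right panels all filled points and most open ones lie right of 0, while the middle panel holds 0 filled points; genes not reported singly are not drawn, and wide bars belong to genes with few counts.

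**Figure D4:**
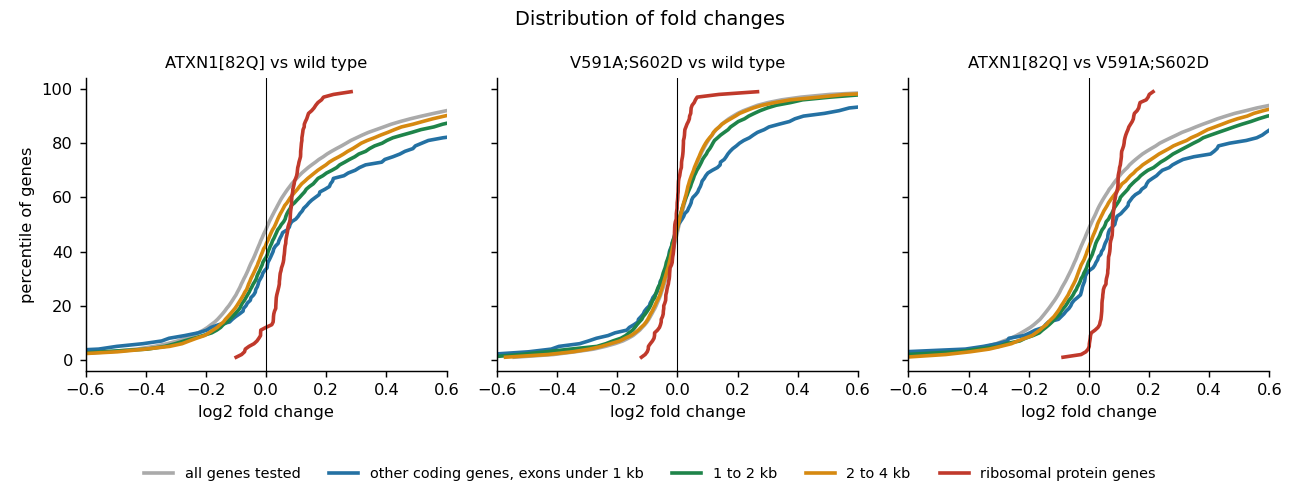
Percentile of genes (vertical axis) against log2 fold change (horizontal axis) for the tested ribosomal protein genes, all genes tested, and other protein-coding genes with under 1 kb, 1 to 2 kb and 2 to 4 kb of exons. In both ATXN1[82Q] comparisons the ribosomal protein curve is steep and crosses the 50th percentile at 0.075 and 0.078, beside 0.080 and 0.086 for other genes under 1 kb, 0.051 and 0.055 for 1 to 2 kb and 0.031 and 0.028 for 2 to 4 kb, and in the remaining comparison all curves cross near 0.

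The direction of small changes in these libraries moved with exon length, so the ribosomal protein genes were set beside other genes of each length class. Among protein-coding genes without the ribosomal protein genes, the median log2 fold change of ATXN1[82Q] against wild type was 0.080 for 243 genes with under 1 kb of exons, 0.051 for 1497 genes of 1 to 2 kb, 0.031 for 4434 genes of 2 to 4 kb and -0.017 for 8120 genes over 4 kb. Against the substituted transgene the medians were 0.086, 0.055, 0.028 and -0.023, and for the substituted transgene against wild type they were 0.0022, -0.00026, 0.0023 and 0.0094. The tested ribosomal protein genes fell into these classes as 12, 33, 29 and 6. Their own medians in the 4 classes were 0.083, 0.081, 0.066 and 0.074 against wild type and 0.081, 0.073, 0.080 and 0.085 against the substituted transgene. They were close to those of other genes under 1 kb of exons. They were higher than those of other genes in the 3 longer exon classes, which hold most of the ribosomal protein genes. Exon length here counts every annotated exon of a gene and can far exceed its principal mRNA. Examples are Rps19 (4685 and 633 bases) and Rpl18 (4043 and 679 bases). Classes by mRNA length were not compared, so an excess over genes of like mRNA length is not shown. The differences between the medians were not tested.

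Among small subunit proteins, 11 of 33 were called higher (33.3%) and 1 lower (3.03%) in ATXN1[82Q] against wild type (median log2 fold change 0.094). Of all genes, 16.6% were called higher and 14.9% lower there. Against the substituted transgene 11 were higher (33.3%) and 0 lower (median 0.097), beside 13.5% and 14.6% of all genes. Rps4x (chromosome X, 102184941 to 102189394, GRCm38, minus strand), an X-linked gene whose human counterpart also has a Y-linked copy, stood at 183, 170.5, 168, 169.9 and 174 CPM in wild-type libraries 1 to 5, at 206, 192, 196, 199 and 196 in ATXN1[82Q], and at 174, 165, 168, 188 and 169 in the substituted mice. All ATXN1[82Q] values lay above all others, with substituted library 4 nearest to them. The log2 fold change was 0.19 against wild type (SE 0.0351, edgeR adjusted p = 0.000495) and 0.19 against the substituted transgene (adjusted p = 0.000723). Each genotype had 2 libraries with Xist, the transcript of X inactivation, over 1000 CPM.

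Rps12 (chromosome 10, 23785183 to 23787275, GRCm38, minus strand), which in Drosophila takes part in the sensing of ribosomal protein loss between cells, read 138, 127, 118, 129.6 and 134 CPM in the wild-type libraries, 144, 140.1, 152, 145 and 142 in ATXN1[82Q] and 125, 128, 125, 137 and 130.5 in the substituted mice. No ATXN1[82Q] library overlapped either other group, although wild-type library 1 and substituted library 4 came close to the lowest ATXN1[82Q] value. Wild type and the substituted mice overlapped. Its log2 fold changes were 0.16 (SE 0.0389, edgeR adjusted p = 0.00412) and 0.16 (adjusted p = 0.00497). Exons of Snora33 and Snord100, which are rows of the same tables, and of another gene cover 13.7% of its exon length, where reads may be shared or lost.

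Rps28, a small protein near the path where the mRNA leaves the subunit, measured 46.2, 46.0, 43.7, 43.5 and 48.1 CPM in wild-type mice, 48.9, 51.1, 46.8, 52.4 and 51.0 in ATXN1[82Q] and 44.7, 44.8, 45.5, 46.7 and 44.2 in the substituted mice. ATXN1[82Q] library 3 overlapped the wild-type range, and no ATXN1[82Q] library overlapped the substituted ones. It was called higher in both comparisons (log2 fold change 0.14 and 0.15, edgeR adjusted p = 0.0132 and 0.0108). Rps19, the protein most often mutated in Diamond-Blackfan anaemia, went from 71.5 ± 2.81 CPM in wild type to 78.9 ± 2.52 in ATXN1[82Q] (SD, n = 5; log2 fold change 0.14, edgeR adjusted p = 0.0172), with 72.7 ± 4.71 in the substituted mice (adjusted p = 0.0470 against ATXN1[82Q]). Its first call was lost without wild-type library 3 and its second without any one of 9 libraries, all but substituted library 4. Rps3a1 read 287, 259.9, 251, 264 and 272 CPM in wild-type mice, 294, 283, 288, 296 and 284 in ATXN1[82Q] and 264, 267, 247, 273 and 267 in the substituted mice, so that wild-type library 1 reached the ATXN1[82Q] range and no substituted library did. It was called in both (log2 fold change 0.12 and 0.13, edgeR adjusted p = 0.0256 and 0.0138), and the call against wild type was lost without wild-type library 2, 3 or 4 or ATXN1[82Q] library 1 or 4. Rps13 and Rps23, the latter a protein of the decoding centre, were also called in both, with log2 fold changes of 0.12 and 0.093 against wild type and 0.12 and 0.11 against the substituted transgene. Rps9, Rps16 and Rps26 were among those that passed against wild type and not against the substituted transgene, and Rps20, Rps24, Rps27a and Rps27l the reverse; whether such a gene differs between the comparisons was not tested.

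Rps27a, made as a fusion with ubiquitin that is split after translation, showed 188, 174, 159, 182 and 188 CPM in wild-type mice, 188, 194, 194, 189 and 177 in ATXN1[82Q] and 161, 158, 169, 182 and 168 in the substituted mice. Substituted library 4 lay within the ATXN1[82Q] range, and wild type overlapped both groups. Its log2 fold change was 0.17 against the substituted transgene (SE 0.0462, edgeR adjusted p = 0.0123), 0.081 against wild type (adjusted p = 0.199) and -0.088 for the substituted transgene against wild type (adjusted p = 0.491). Rps27l, the paralog of Rps27 that p53 induces in human cells, read 11.1, 11.1, 11.1, 11 and 13.1 CPM in wild-type mice, 14, 12, 13.6, 13.0 and 12.1 in ATXN1[82Q] and 10.3, 10.9, 10.8, 12.1 and 10.4 in the substituted mice. Wild-type library 5 stood above its group and inside the ATXN1[82Q] range, and substituted library 4 reached the lower end of that range. Its change against the substituted transgene was the largest of those called, a log2 fold change of 0.25 (SE 0.0679, edgeR adjusted p = 0.0123), and it missed the threshold against wild type (0.17, adjusted p = 0.0626).

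Rps6, the substrate of S6 kinase and a common readout of mTOR activity, read 198, 170.1, 181, 181 and 187 CPM in wild-type mice, 187, 192, 198, 205 and 202 in ATXN1[82Q] and 185, 184, 181, 193 and 186 in the substituted mice. Wild-type library 1 stood within the ATXN1[82Q] range and the groups overlapped. Its log2 fold change was 0.099 against wild type (SE 0.0369, edgeR adjusted p = 0.0501, just short of passing) and 0.080 against the substituted transgene (adjusted p = 0.113). Rpsa, which also serves as a laminin-binding protein at the cell surface, measured 364 ± 13.6, 381 ± 8.54 and 358 ± 12.9 CPM in wild-type mice, ATXN1[82Q] and in the substituted mice (SD, n = 5), and did not pass against either (edgeR adjusted p = 0.165 and 0.0573).

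**Figure D5:**
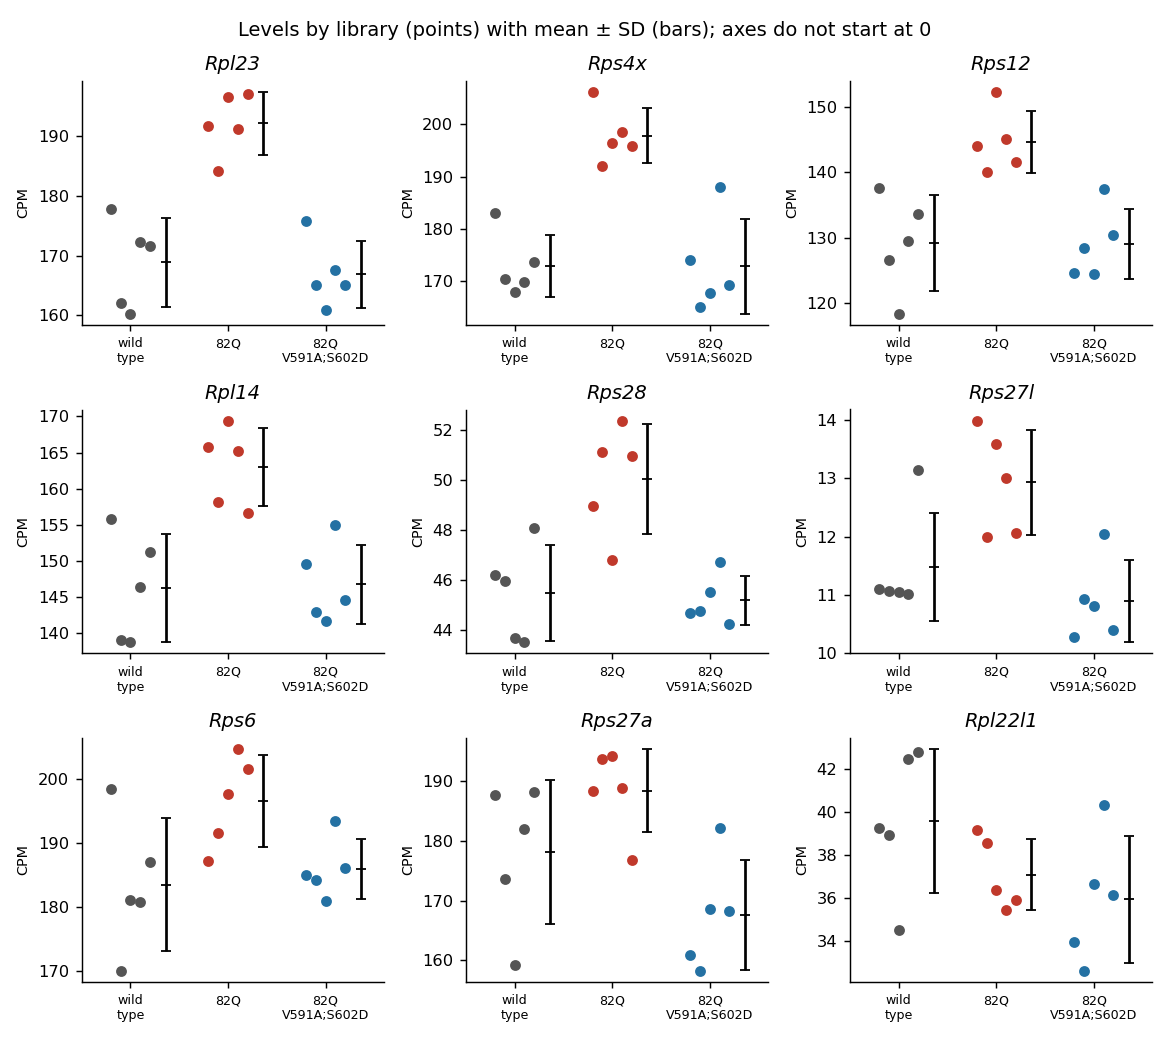
CPM by library (points) for 9 ribosomal protein genes in wild type, ATXN1[82Q] (82Q) and the substituted transgene (82Q V591A;S602D), with mean ± SD beside each group and vertical axes that do not start at 0. Rpl23, Rps4x, Rps12 and Rpl14 show all ATXN1[82Q] libraries above the rest, and Rps27a and Rpl22l1 show overlapping groups.

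Among large subunit proteins, 7 of 47 tested were called higher in ATXN1[82Q] against wild type (median log2 fold change 0.062). That is 14.9%, under the 16.6% of all genes. Against the substituted transgene 8 were called higher (17.0%, against 13.5% of all genes, median 0.065). By edgeR 0 were called lower in either comparison, where 14.9% and 14.6% of all genes were, and 0 were lower at an unadjusted p under 0.05. Rpl23 (chromosome 11, 97777527 to 97782437, GRCm38, minus strand), which lies at the interface of the subunits and whose human form binds MDM2, stood at 178, 162, 160.2, 172 and 172 CPM in wild-type mice, 192, 184, 197, 191 and 197 in ATXN1[82Q] and 176, 165, 161, 168 and 165 in the substituted mice. Every ATXN1[82Q] library lay above every other, and wild type and the substituted transgene overlapped. The log2 fold change was 0.19 against wild type (SE 0.0329, edgeR adjusted p = 0.000375) and 0.20 against the substituted transgene (SE 0.0329, adjusted p = 0.000289).

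Rpl14 (chromosome 9, 120571444 to 120574654, GRCm38, plus strand), a protein of the large subunit, read 156, 139, 139, 146 and 151 CPM in wild-type mice, 166, 158, 169, 165 and 157 in ATXN1[82Q] and 149.6, 143, 142, 155 and 145 in the substituted mice. Again no ATXN1[82Q] library overlapped either other group, though wild-type library 1 and substituted library 4 came close to the lowest ATXN1[82Q] library. Wild type and the substituted mice overlapped. Its log2 fold changes were 0.16 and 0.15 (edgeR adjusted p = 0.00346 and 0.00546). Rpl17, which lines the exit tunnel, Rpl21 and Rpl32 were also called in both comparisons. Their log2 fold changes were 0.13, 0.13 and 0.11 against wild type and 0.12, 0.17 and 0.097 against the substituted transgene. Rpl10 and Rpl13a passed against wild type alone (log2 fold change 0.10 and 0.13, edgeR adjusted p = 0.0476 and 0.0422); Rpl10 joins late in assembly of the subunit, and its call was lost without any one of 8 of the 10 libraries, the exceptions being wild-type library 1 and ATXN1[82Q] library 5. Rpl7, Rpl22 and Rpl31 passed against the substituted transgene alone, with log2 fold changes of 0.14, 0.097 and 0.11.

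The stalk proteins and Rpl3, Rpl5 and Rpl11 of the large subunit did not pass. Rplp0, the base of the stalk, measured 181 ± 5.65 CPM in wild-type mice, 186 ± 3.95 in ATXN1[82Q] and 180.4 ± 6.60 in the substituted mice (SD, n = 5; log2 fold change 0.032 against wild type, edgeR adjusted p = 0.441). The stalk proteins Rplp1 and Rplp2 had log2 fold changes of 0.046 and 0.085 against wild type (edgeR adjusted p = 0.596 and 0.167). Rpl3, close to the peptidyl transferase centre, stood at 0.039 (adjusted p = 0.509). Rpl5 and Rpl11, which form a complex with 5S rRNA that binds MDM2, had log2 fold changes of 0.068 and 0.089 (edgeR adjusted p = 0.152 and 0.0991).

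Of 5 pairs of a paralog and its partner, 4 had the paralog below the partner per length of mRNA, and no paralog was called against wild type. Rpl22l1, whose transcript Rpl22 represses in mice, stood at 38.2% ± 2.33 of Rpl22 per kb in wild type, 34.6% ± 1.32 in ATXN1[82Q] and 35.8% ± 2.04 in the substituted mice (SD, n = 5). Its CPM values were 39.3, 38.9, 34.5, 42.5 and 42.8 in wild type, 39.2, 38.6, 36.4, 35.5 and 35.9 in ATXN1[82Q] and 34.0, 32.6, 36.7, 40.4 and 36.1 in the substituted mice, with all groups overlapping (edgeR adjusted p = 0.272, 0.395 and 0.627 in the 3 comparisons). Rpl7l1 stood at 18.1% ± 1.17, 16.4% ± 0.530 and 18.0% ± 0.820 of Rpl7. Rps4l stood at 4.56% ± 0.958, 5.06% ± 0.963 and 5.98% ± 1.18 of Rps4x, and its log2 fold change of 0.34 against wild type did not pass (SE 0.154, edgeR adjusted p = 0.0994). Rpl3l stood at 0.190% ± 0.0471, 0.225% ± 0.0510 and 0.207% ± 0.0401 of Rpl3. The other pair went the opposite way, with Rps27l at 722% ± 51.9, 918% ± 314 and 776% ± 233 of Rps27, which was itself listed near 0.

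The genes moved together from library to library within a genotype. Over 75 genes with at least 20 CPM in wild-type mice, the median pairwise correlation of deviations from the genotype mean was 0.58 across 15 libraries, and 96.0% of pairs were positive; the points share library, depth and scaling, so this is a description. Rps15a was the exception, with a mean correlation of -0.21 with the others. Relative to the wild-type mean, the median of the 80 genes was 0.079 higher on the log2 scale in wild-type library 1, with 75 of 80 above the mean, and 0.074 lower in wild-type library 3, with 1 of 80 above. It was 0.055 to 0.11 higher in the ATXN1[82Q] libraries, with 61 to 73 of 80 above. With the substituted transgene it ran from -0.056 to -0.014 in 4 libraries and was 0.078 in library 4, where 74 of 80 lay above. Wild-type library 1 and substituted library 4 thus reached the range of the ATXN1[82Q] libraries, and both held Ttr over 1000 CPM. Among the other libraries with Ttr over 1000 CPM, wild-type library 5 stood at 0.046, with 74 of 80 above the mean. Substituted libraries 2 and 3 stood at -0.040 and -0.023. The median coefficient of variation of single genes was 5.06% in wild type, 3.33% in ATXN1[82Q] and 4.14% in the substituted mice.

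The promoter letters described above were counted in genes called higher in either ATXN1[82Q] comparison and in the others, with no test of the differences. Of 18 such genes with a promoter sequence, 13 held the pyrimidine run (72.2%) and 4 held CCGGAAG (22.2%), against 34 (81.0%) and 20 (47.6%) of the 42 tested genes called higher in neither. GGGCGG was in 12 (66.7%) against 26 (61.9%), TATAAA in 1 (5.56%) against 5 (11.9%) and AAGATGGCG in 1 (5.56%) against 3 (7.14%). By sequence shared with other genes, of 30 genes with under 50% of 50-mers shared, 6 were called higher against wild type (median log2 fold change 0.073). Of the other 50 genes, 12 were (median 0.081), beside 16.6% of all genes. Against the substituted transgene 7 of the 30 and 12 of the 50 were called higher (medians 0.075 and 0.079), beside 13.5% of all genes. The genes lie on many chromosomes, with chromosome 7 holding 14 and chromosome 17 holding 8.

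Other genes of the translation machinery were set beside the shares of all genes called, which were 16.6% higher and 14.9% lower against wild type and 13.5% higher and 14.6% lower against the substituted transgene. Of Fau, Rack1 (listed as Gnb2l1) and Rpl36al, ribosomal protein genes outside the symbol pattern, edgeR called 0 against wild type (also 0 at an unadjusted p under 0.05), and only Rpl36al against the substituted transgene (27.6 ± 1.14 to 29.9 ± 0.874 CPM, SD, n = 5, edgeR adjusted p = 0.0363). Of 37 tested initiation factors, 1 was called higher (2.70%) and 6 lower (16.2%, near the share of all genes) in ATXN1[82Q] against wild type (median log2 fold change -0.049), and 1 higher and 3 lower (8.11%) against the substituted transgene (median -0.025). Eif2s1, a subunit of the factor that delivers the initiator tRNA, went from 51.2 ± 0.745 CPM in wild type to 46.2 ± 0.889 in ATXN1[82Q] (SD, n = 5; edgeR adjusted p = 0.00443), and the scaffold Eif4g1 from 344 ± 18.5 to 315 ± 5.88 (adjusted p = 0.0187). Of 8 elongation factors 1 was higher (12.5%) and 2 lower (25%) in each ATXN1[82Q] comparison. Eef1a1, which brings aminoacyl-tRNA to the ribosome and also carries a terminal oligopyrimidine tract, went from 1294 ± 65.4 CPM in wild type to 1472 ± 43.7 in ATXN1[82Q] (edgeR adjusted p = 0.00227). Its neuronal and muscle paralog Eef1a2 went from 1017 ± 73.7 to 895 ± 42.0 CPM (edgeR adjusted p = 0.00746), and Eef2k, the kinase that inhibits elongation factor 2, from 82.2 ± 2.24 to 66.0 ± 3.24 (adjusted p = 9.01e-06). Among 18 other transcripts known to carry the terminal tract, Eef1a1 included, 1 was higher (5.56%) and 0 lower by edgeR against wild type (median 0.024; at an unadjusted p under 0.05, 2 higher and 0 lower), and 2 were higher (11.1%) and 0 lower against the substituted transgene (median 0.019).

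Of 17 genes of the mTOR and S6 kinase pathway, 0 were called higher and 7 lower (41.2%, against 14.9% and 14.6% of all genes) in both ATXN1[82Q] comparisons by edgeR (median log2 fold change -0.051 and -0.038; at an unadjusted p under 0.05 in the first, 1 was higher and 8 lower, and in the second 0 and 7). Larp1, the protein that binds terminal oligopyrimidine mRNAs, went from 166 ± 6.0 CPM in wild type to 148 ± 4.03 in ATXN1[82Q] (SD, n = 5; edgeR adjusted p = 0.00145). Mlst8, an mTOR complex subunit, went from 41.5 ± 2.32 to 37.0 ± 1.09 CPM (adjusted p = 0.00758). In each comparison 3 of the 7 were Rps6ka1, Rps6ka3 and Rps6ka5, kinases downstream of ERK that were listed with the S6 kinases by name and are not members of the mTOR pathway. The largest falls against wild type were those of Rps6ka3 and Rps6ka5, with log2 fold changes of -0.29 and -0.28 (edgeR adjusted p = 0.00549 and 0.000970). The S6 kinase genes Rps6kb1 and Rps6kb2 did not pass (log2 fold change -0.026 and 0.036, edgeR adjusted p = 0.661 and 0.622).

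Few of the genes that make ribosomes were called. Of 67 assembly factors, 1 was called higher (1.49%, against 16.6% of all genes) and 5 lower (7.46%, against 14.9%) against wild type (median log2 fold change -0.029), and 1 higher and 2 lower against the substituted transgene (median -0.0014). Ebna1bp2 and Nol11, which act in the processing of ribosomal RNA, went from 58.3 ± 1.52 to 51.5 ± 1.20 CPM and from 30.2 ± 1.43 to 26.7 ± 0.840 CPM against wild type (SD, n = 5; edgeR adjusted p = 0.000625 and 0.00789). Of 14 genes of RNA polymerase I, which transcribes ribosomal RNA, 1 was lower and 0 were higher by edgeR in each comparison, also at an unadjusted p under 0.05 with 2 lower and 0 higher; that gene was Polr1d, at 47.7 ± 1.87 CPM in wild-type mice and 42.2 ± 3.79 in ATXN1[82Q] (edgeR adjusted p = 0.0205). Of 77 mitochondrial ribosomal protein genes, 1 was higher and 2 lower against wild type (median -0.031), and 2 higher and 3 lower against the substituted transgene (median -0.0095).

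Among 11 genes of the p53 response, which free ribosomal proteins can trigger, 4 were called higher (36.4%, against 16.6% of all genes) and 1 lower (9.09%, against 14.9%) in ATXN1[82Q] against wild type (median log2 fold change 0.20), and 3 higher (27.3%, against 13.5%) and 1 lower (9.09%, against 14.6%) against the substituted transgene (median 0.14). Trp53 itself went from 21.1 ± 0.941 CPM in wild type to 25.5 ± 1.75 in ATXN1[82Q] (SD, n = 5; edgeR adjusted p = 0.00100) and stood at 21.4 ± 1.15 in the substituted mice. Bbc3, a p53 target that promotes cell death, went from 10.2 ± 1.38 CPM in wild type to 14.9 ± 1.11 in ATXN1[82Q] and 13.4 ± 0.487 in the substituted mice (edgeR adjusted p = 4.92e-05 and 0.0129). Zmat3, also a p53 target, went the other way, from 102 ± 4.76 to 81.7 ± 4.97 CPM (adjusted p = 6.92e-05). For the substituted transgene against wild type, Bbc3 was the one gene that passed among all the lists of translation, assembly, mTOR and p53 genes given here. In all lists above, microglial and oligodendrocyte markers were higher and Purkinje and granule cell markers lower in the same ATXN1[82Q] libraries, and their part in these values was not tested.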

How the data were processed

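Whole cerebella of 3 genotypes, 5 libraries each, were sequenced. Per the labels' protocols, cDNA was made from 10 ng of total RNA by poly(A) and random priming and cut to inserts of 400 bp. Per the submitters' processing notes, reads were aligned with STAR 2.5.3a to mm10 and counted with HTSeq, and DESeq2 was used. The deposited values are raw counts per gene as the authors made them. For strand setting, counting mode and annotation, the details were not given in the sources read.

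The main test was the quasi-likelihood F-test of edgeR 4.0.16 in R 4.3.3, fitted jointly to the 15 libraries, with TMM factors (0.968 to 1.04) and filterByExpr at a minimum count of 10. A gene was called at an adjusted p under 0.05 (Benjamini-Hochberg, 15843 genes). CPM were TMM-scaled. The test was checked on simulated counts. The rows that name no gene were left out: 16.8% to 18.2% of reads lay outside genes, 1.18% to 1.25% were ambiguous and 12.8% to 14.6% aligned more than once. Within a genotype all 30 library pairs differed beyond counting noise (chi-square over its degrees of freedom, 5.70 to 40.6).

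Positions and exon lengths came from GENCODE M21, in which 23376 of the 24421 symbols of the count tables were found, and promoters from RefSeq. The genes and lists were chosen with earlier results of these data known. Described genes were the 8 largest called changes per direction and comparison, fixed members and paralogs, and up to 4 called genes per list. Some members that this rule or the tests pick out are counted in the totals but not reported here singly, in text or figures. Other called members, and Rps6kb1 and Rps6kb2, were named after their values were seen. Alternatives were DESeq2 1.42.0, other scalings and filters, a replicate block, Ttr, pseudogene counts and single libraries left out.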

Additional observations from a re-analysis of the deposited data

Results flagged for a closer look

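Each genotype's 5 libraries were checked for one standing far from the rest, over 84 groups of values, and 6 were marked; chance marks about 1 in 20 groups. Substituted library 4 accounted for 4 of them. Its share of counts on ribosomal protein genes was 1.24%, against 1.12% to 1.15% in the other substituted libraries. In the same library Rpl11 stood at 226 CPM (others 196 to 204), Rpl3 at 257 CPM (others 231 to 239) and Rplp2 at 97.0 CPM (others 84.0 to 85.4). In ATXN1[82Q] library 4 the share was 1.32%, against 1.26% to 1.27% in the other ATXN1[82Q] libraries. In wild-type library 5 Rps27l stood at 13.1 CPM, against 11 to 11.1 in the other wild-type libraries.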

How the results depend on the processing

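The count of ribosomal protein genes called higher in ATXN1[82Q] against wild type, 18, ran from 5 to 27 with single libraries left out, and the count called lower from 0 to 1. Against the substituted transgene the 19 called higher ran from 11 to 36. With Ttr as a covariate, the median log2 fold change of the ribosomal protein genes was 0.057 against wild type and 0.077 against the substituted transgene. It was 0.105 and 0.097 with libraries of Ttr under 100 CPM alone. In that setting 0 of these genes were lower against wild type and 8 were higher against the substituted transgene. Without both ATXN1[82Q] libraries with the highest brainstem markers (2 and 5), chosen after seeing the data, 0 were lower against wild type and 12 higher against the substituted transgene. Both settings hold fewer samples. Their counts called higher against wild type are not reported here, and the shares of all genes called in them were not compared. Over all reads in the tables, instead of counts on genes, the shares were 0.779% (wild type), 0.854% (ATXN1[82Q]) and 0.785% (substituted mice). The replicate numbers carried no pairing (correlation over 0.1 in 4 of 15 pairs with one number, median -0.109), and with the replicate number as a block 15 were higher in each ATXN1[82Q] comparison. DESeq2 called 19 and 20 higher. No called value changed direction under any alternative run. The median log2 fold change of the 80 genes for the substituted transgene against wild type, -0.0087, had no stable sign: it ran from -0.029 to 0.013 over 19 alternatives and was above 0 in 5 of them. The reads carry no molecular identifiers, so p-values and spreads do not count molecules, and genes listed near 0 carry no usable comparison.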
